A study of Mus musculus with 12 samples.

Results

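The genotype by layer interaction asks which genes differ between bitransgenic and wild-type keratinocytes by a different amount in the basal layer than in the suprabasal layers of mouse epidermis. For each feature it is the bitransgenic minus wild-type difference in basal cells, less the same difference in suprabasal cells, on a log2 scale. A negative value means that the bitransgenic cells were lower relative to wild type in the basal layer than in the suprabasal layer, and a positive value means that they were higher. The contrast uses all 12 arrays of the series and 65956 transcript clusters, which are the array's gene-level features. No cluster passed the test at an adjusted p of 0.05.

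The epidermis is renewed by basal keratinocytes, which sit on the basement membrane through integrins, express keratins 5 and 14, and divide. Their daughters move into the suprabasal layers, switch to keratins 1 and 10 and later build the cornified envelope. Whether both daughters of a division stay basal or one is placed above depends on the angle of the mitotic spindle, which is set by cortical complexes that include LGN, the product of Gpsm2. The title of the study names progerin, a truncated lamin A that accumulates at the nuclear envelope, together with the symmetry of cell division and Wnt signalling, so genes of the nuclear envelope, spindle orientation and Wnt pathways were among those examined.

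The groups were bitransgenic basal (bt_high), wild-type basal (wt_high), bitransgenic suprabasal (bt_low) and wild-type suprabasal (wt_low) keratinocytes, with 3 arrays each. All came from the skin of FVB/N mice at postnatal day 4, and primary keratinocytes were sorted by flow cytometry before RNA was taken. The labels name neither the transgenes of the bitransgenic mice nor the promoter that drives them, and they give no surface marker for the sort. Each array carries a code: bitransgenic X721_05 and X667_05 and wild-type X667_06, X682_11 and X721_08 have an array of each layer, whereas bitransgenic X722_07 has only a basal and X682_05 only a suprabasal one. The labels do not say that a code is an animal, so p-values measure the spread between these samples, which may be partly technical.

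Signals are log2 values made by the authors with RMA, which corrects background, equalises the distributions of the arrays and summarises probes. Array medians lay between 5.28 and 5.46. A cluster was called above background on an array when it exceeded the 95th percentile of that array's intronic control probe sets, a mark of 8.04 to 8.81, and 7.14% to 12.3% of clusters exceeded it. Of 30807 genes with a symbol, each given by its brightest cluster, 4743 were above background on all 3 arrays of at least 1 group. Krt5, Krt14, Krt1 and Krt10 were far above background on all 12 arrays, at 12.20 to 13.54 for Krt5 and 12.60 to 13.50 for Krt10, so keratinocyte identity fitted the labels. These keratins separated the layers little. Wild-type basal and suprabasal means were 12.81 and 12.87 for Krt1, 13.09 and 13.26 for Krt10, and 13.52 and 13.18 for Krt5. The integrin gene Itga6 differed more, at 10.16 and 9.29. Xist was high and Ddx3y low on the 4 bitransgenic arrays of X667_05, X722_07 and X682_05, and the reverse held for bitransgenic X721_05 and all 6 wild-type arrays. This sex pattern was split alike in both layers (2 of 3 bitransgenic and 0 of 3 wild-type arrays Xist-high in each), and the interaction was 0.29 ± 2.73 for Xist and -0.15 ± 1.44 for Ddx3y (SE). All Xist-high arrays were bitransgenic, so sex and genotype were partly confounded within each layer. The equal split balances in the interaction only a sex difference that is the same in both layers.

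The bitransgenic pair X667_05 stood apart from the other codes in how few genes differed between its layers, before any genotype was compared. Over the 4743 genes above background, 2 (0.0422%) differed 2-fold or more between its basal and suprabasal arrays. The count was 323 (6.81%) for bitransgenic X721_05, and 56 (1.18%), 135 (2.85%) and 283 (5.97%) for wild-type X667_06, X682_11 and X721_08. The standard deviation of the layer difference was 0.15 in X667_05, below that of all 12 pairs of arrays within a group (0.18 to 0.50). The array labelled suprabasal X667_05 carried little of the melanocyte signal of the other suprabasal arrays: Dct, a melanin enzyme of melanocytes, was at 9.14 there, against 12.98 and 12.29 on the other bitransgenic and 11.57, 12.69 and 12.35 on the wild-type suprabasal arrays. Dct was at 8.04 on its basal array, the highest of the basal arrays, which ran from 6.24 to 8.04. The bitransgenic suprabasal array of X721_05 lay at the other end. There Krt5 was at 12.20 and Itga6, an integrin of the basal surface, at 8.18, the lowest of the 12 arrays for both, whereas the suprabasal array of X667_05 had 13.32 and 9.93. The early differentiation list and Krt1 did not have a smaller layer difference in X667_05 than in all other codes. Its median layer difference was -0.25 for the early differentiation list, against -0.15 in X721_05 and -0.17, -0.27 and -0.47 in the wild-type pairs. Its Krt1 difference was -0.47, against -0.26 in X721_05 and 0.13, 0.03 and -0.35 in the wild-type pairs. The differences of Lor (-0.26) and Flg (-0.29) lay within the range of the other codes. Ndrg2 and Krt79 did set X667_05 apart, at -0.41 and -0.65. Ndrg2 was at -1.18 in X721_05 and -1.38 to -2.08 in the wild-type pairs. Krt79 was at -2.89 in X721_05 and -1.91 to -2.87 in the wild-type pairs. For many of the genes and lists below the value without both arrays of X667_05 is given as well.

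**Figure D1:**
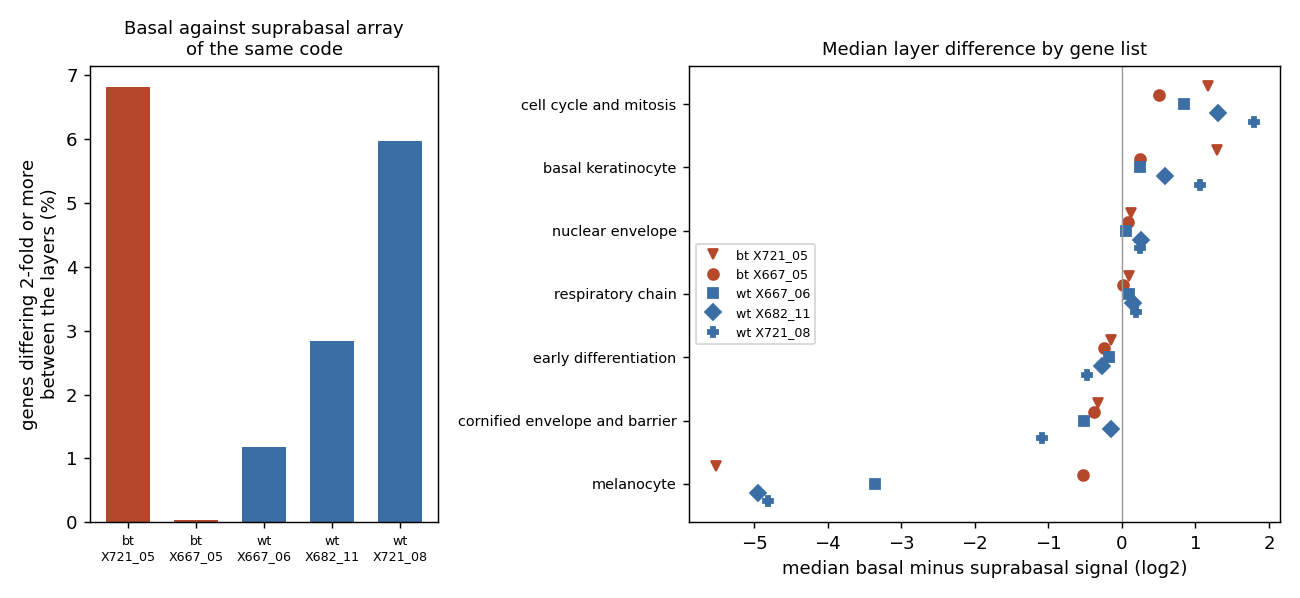
Left, percentage of 4743 genes above background whose basal and suprabasal arrays of the same code differed 2-fold or more (bars start at 0). Right, median basal minus suprabasal signal (log2) of the measured genes of 7 gene lists, a point per code, bitransgenic (bt) in red and wild type (wt) in blue. The bitransgenic X667_05 bar is near 0, at 0.0422%, and its melanocyte point lies at -0.54, whereas the other codes lie between -5.52 and -3.36.

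No gene had a genotype difference that depended on the layer at the threshold used. In 1 limma fit of the 4 group means, 0 of 65956 clusters were called (0%; smallest adjusted p = 0.393, Benjamini-Hochberg over all clusters). At an unadjusted p under 0.05, limma had 6734 clusters (10.2%), 5898 higher (8.94%) and 836 lower (1.27%). The genotype difference within basal cells called 0 clusters (smallest adjusted p = 0.129), with 8649 (13.1%) at an unadjusted p under 0.05, 6186 higher (9.38%) and 2463 lower (3.73%). Within suprabasal cells it also called 0 (smallest adjusted p = 0.866), with 3440 (5.22%) at an unadjusted p under 0.05, 1079 higher (1.64%) and 2361 lower (3.58%). Leaving out both arrays of X667_05 kept the interaction count at 0, with 6462 higher and 1116 lower clusters at an unadjusted p under 0.05. In this fit, which does not pair arrays by code, the median 95% confidence interval of an interaction reached 0.37 log2 either side for a gene above background. For a typical gene this unpaired fit gave the interaction no more closely than that before adjustment.

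The excess of positive values lay mainly among dim clusters, and the genes above background had a negative median. The median interaction was 0.06 over all clusters, 0.07 over the 26064 genes not above background in any group, and -0.08 over the 4743 genes above background, of which 25.6% were positive. Among genes above background, 36 (0.759%) were higher and 110 (2.32%) lower at an unadjusted p under 0.05. The counts leaned the other way in a separate fit of all 6415 clusters above background, with or without a symbol. Fitted alone in limma, 141 of these were higher and 95 lower, although their median was -0.09. The counts of the genes and of these clusters come from unlike fits, so the part of the added clusters was not separated from that of the fit. Among genes not above background, 2647 (10.2%) were higher and 350 (1.34%) lower. With the clusters sorted by mean signal into 10 bins of equal size, the median interaction was 0.12 in bins 6 and 7 and -0.09 in bin 10, the brightest. The array medians moved the same way as the dim clusters, at a mean of 5.38 in bitransgenic and 5.33 in wild-type basal arrays and 5.37 in bitransgenic and 5.42 in wild-type suprabasal arrays, an interaction of 0.10. The medians of exonic control probe sets moved as the bright genes did, with an interaction of -0.19. Their part in the individual values was not tested.

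**Figure D2:**
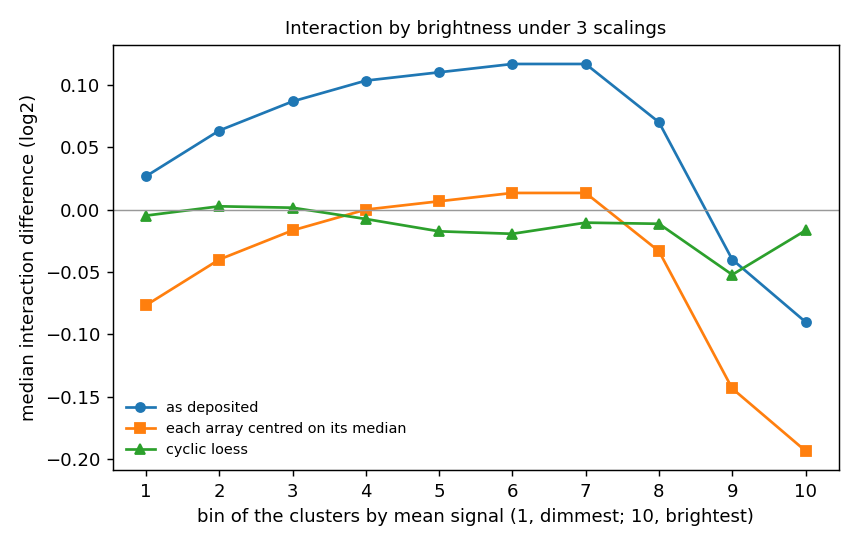
Median interaction difference (log2, vertical axis) of clusters sorted into 10 bins by mean signal over 12 arrays (horizontal axis, 1 the dimmest), with the deposited values, with each array centred on its median, and after cyclic loess. With the deposited values the median is 0.12 in bins 6 and 7 and -0.09 in bin 10, and after loess all 10 bins lie between -0.05 and 0.00.

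The direction of the whole distribution depended on the scaling. Centring each array on its median lowered each interaction by 0.10, moved the median to -0.04 and changed the split at an unadjusted p under 0.05 to 1702 higher and 2924 lower, so that 36.8% were higher, against 87.6% with the deposited scaling. Cyclic loess between arrays gave a median of -0.01 and 2100 higher against 1979 lower clusters, 51.5% higher. Among the 4743 genes above background the counts were 18 higher and 412 lower after centring, and 63 higher and 62 lower after loess. Gene values below are relative to the deposited scaling, and 0 clusters were called under each of the 3.

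Gpsm2 (chromosome 3, 108678638 to 108722309 on mm10) had the most negative interaction of the spindle orientation list. Its signal was 8.84, 9.13 and 8.67 on bitransgenic basal arrays, against 9.44, 9.47 and 9.31 on wild-type basal arrays. In suprabasal cells it was 8.64, 8.84 and 8.89 on bitransgenic and 8.73, 8.81 and 8.27 on wild-type arrays. The 8.64 of bitransgenic X721_05 and the 8.27 of wild-type X721_08 lay below the background marks of those arrays, 8.81 and 8.71. The basal groups did not overlap, with all bitransgenic arrays lower, and the suprabasal groups did. How many of all genes separate by genotype in this way within a layer was not counted. Non-overlap, for Gpsm2 and for the genes below, therefore only describes the arrays. The genotype difference was -0.53 ± 0.15 in basal and 0.19 ± 0.15 in suprabasal cells, and the interaction was -0.71 ± 0.21 (SE; 95% confidence interval -1.18 to -0.24; limma adjusted p = 0.400), which did not pass. Within codes, the basal minus suprabasal difference was 0.20 and 0.29 in the bitransgenic pairs and 0.71, 0.66 and 1.04 in the wild-type pairs. Over all alternatives the Gpsm2 interaction stayed between -0.84 and -0.55, the latter without wild-type suprabasal X721_08. It was -0.81 without X667_05, and its adjusted p stayed between 0.176 and 0.842.

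The other spindle and polarity genes lay closer to 0. Of the list's 25 genes, all measured and 14 above background, 0 passed the test and 1, Gpsm2, had an unadjusted p under 0.05, where 2.32% of all genes above background were lower at that threshold. The median was 0.03, and turned to -0.07 when arrays were centred and to -0.04 without bitransgenic suprabasal X721_05; it was -0.08 over the 14 genes above background, beside -0.08 over all 4743. Gnai2, a G-protein subunit that anchors LGN at the cortex, was -0.29 ± 0.14, and Numa1, which links LGN to dynein, was -0.11 ± 0.10 (SE). Polarity genes were close to 0, at -0.14 ± 0.13 for Prkci, an atypical protein kinase C, and 0.11 ± 0.13 for Pard3.

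Cxcl14, a chemokine made by resting epidermis (chromosome 13, 56288643 to 56296551), had an interaction of nearly the same size. Its signal was 10.43, 10.19 and 10.42 on bitransgenic basal arrays, against 11.48, 10.95 and 11.29 on wild-type basal arrays. Suprabasal signals were 10.37, 10.08 and 10.28 in bitransgenic and 10.47, 10.16 and 10.65 in wild-type cells. Only the basal groups failed to overlap. The basal difference was -0.89 ± 0.15, the suprabasal difference -0.18 ± 0.15 and the interaction -0.71 ± 0.22 (SE; 95% confidence interval -1.19 to -0.23; limma adjusted p = 0.403). The wild-type pairs were higher in the basal array by 1.01, 0.79 and 0.64, and the bitransgenic pairs by 0.06 and 0.11. Without X667_05 the interaction was -0.71.

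**Figure D3:**
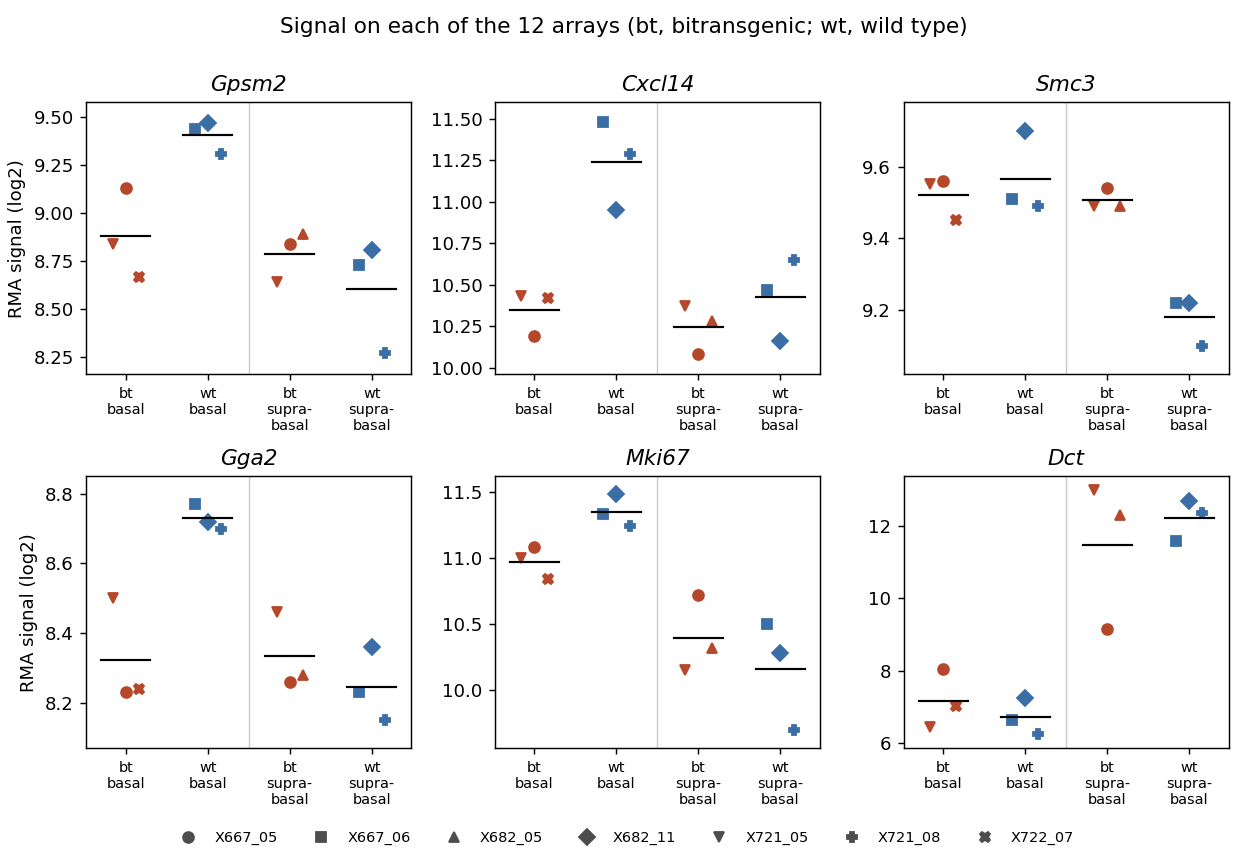
RMA signal (log2, vertical axes with their own ranges) of 6 genes on each of the 12 arrays; symbols mark codes and black lines group means (n = 3). Gpsm2, Cxcl14 and Gga2 are lower on all 3 bitransgenic than on all 3 wild-type basal arrays, Smc3 is higher on all 3 bitransgenic than on all 3 wild-type suprabasal arrays, and Dct has 1 low bitransgenic suprabasal array, X667_05 at 9.14.

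The 10 genes of smallest p with a negative interaction included Ythdf3, Rbfa, Gga2, Smc3, Norad, Crtap, Acot9, Rtf1 and Mapre1. None passed the test, with adjusted p of 0.399 to 0.400 and interactions of -0.58 to -0.27. They were picked for their interaction, so their values describe the strongest candidates and test nothing further. In all 10 both bitransgenic codes had a smaller basal minus suprabasal difference than all 3 wild-type codes. Such a separation occurred in 541 of the 4743 genes above background (11.4%), and the opposite one in 157 (3.31%). Leaving out X667_05 left all 10 negative, from -0.67 for Ythdf3 to -0.28 for Rtf1.

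Among them the layer with the larger genotype difference varied, and no difference passed in either layer. Ythdf3, a reader of N6-methyladenosine in mRNA (chromosome 3, 16183183 to 16217037), was at 8.78, 8.90 and 8.87 on bitransgenic basal arrays, against 9.08, 9.11 and 9.25 on wild-type ones. On suprabasal arrays it was at 9.28, 9.04 and 9.17 in bitransgenic and 8.78, 8.82 and 9.04 in wild-type cells, groups that met at 9.04. The Ythdf3 differences were -0.30 ± 0.09 and 0.28 ± 0.09, of opposite sign in the 2 layers, and the interaction was -0.58 ± 0.12 (SE).

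Smc3, a subunit of the cohesin ring that holds sister chromatids together (chromosome 19, 53600396 to 53645833), had its larger value in suprabasal cells, which did not pass (limma adjusted p = 0.866). It was at 9.49, 9.54 and 9.49 on bitransgenic suprabasal arrays, against 9.22, 9.22 and 9.10 on wild-type ones, without overlap. Basal signals overlapped, at 9.55, 9.56 and 9.45 in bitransgenic and 9.51, 9.70 and 9.49 in wild-type cells. Its differences were -0.05 ± 0.07 in basal and 0.33 ± 0.07 in suprabasal cells (SE). Mapre1, which encodes a protein that binds growing microtubule ends, had the same form, at -0.07 ± 0.06 and 0.21 ± 0.06. Acot9, an X-linked mitochondrial thioesterase, had -0.19 ± 0.11 and 0.34 ± 0.11.

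Gga2, an adaptor for clathrin coats at the Golgi (chromosome 7, 121986722 to 122021222), had its larger value in basal cells, which did not pass either (limma adjusted p = 0.195). It was at 8.50, 8.23 and 8.24 on bitransgenic basal arrays, against 8.77, 8.72 and 8.70 on wild-type ones, without overlap. Suprabasal signals were 8.46, 8.26 and 8.28 in bitransgenic and 8.23, 8.36 and 8.15 in wild-type cells, with overlap and near the background mark. The bitransgenic basal signals were near it too, and the 8.24 of X722_07 lay below that array's mark of 8.42. The Gga2 differences were -0.41 ± 0.09 in basal and 0.09 ± 0.09 in suprabasal cells (SE).

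**Figure D4:**
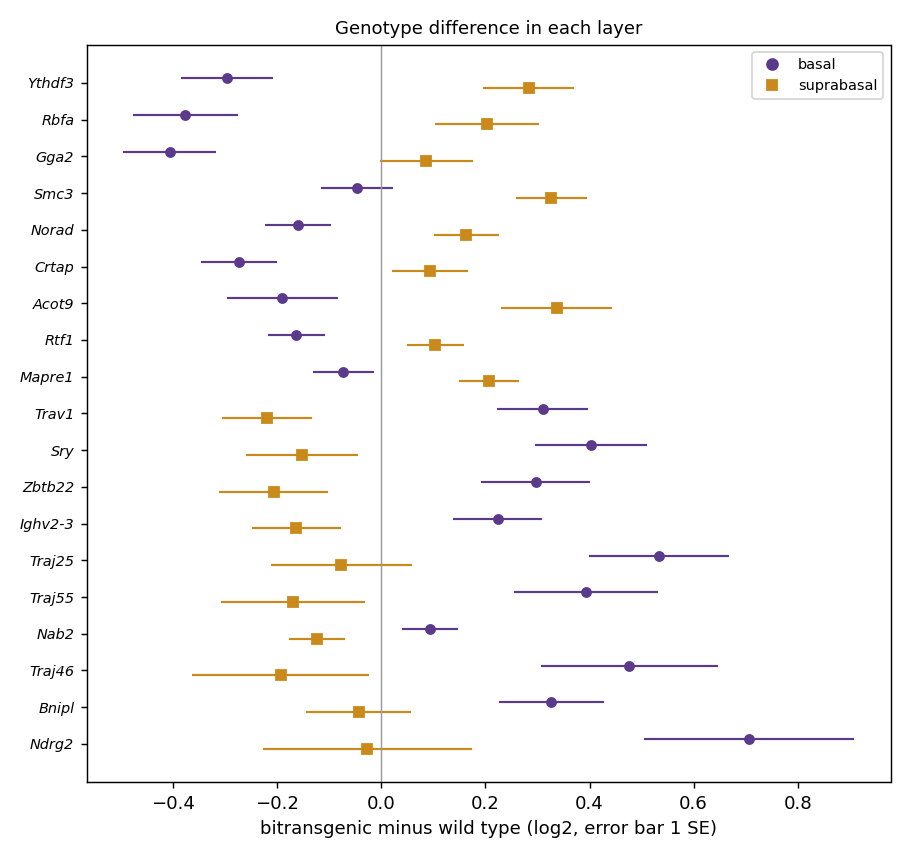
Bitransgenic minus wild-type difference (log2, horizontal axis; error bars 1 SE) in basal (circles) and suprabasal (squares) cells for genes of smallest interaction p in each direction, negative interactions at the top. None passed the test, and the genes were chosen for the gap between the 2 points; in Smc3 the suprabasal point lies away from 0 and in Gga2 the basal one.

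The 10 genes of smallest p with a positive interaction were Trav1, Sry, Zbtb22, Ighv2-3, Traj25, Traj55, Nab2, Traj46, Bnipl and Ndrg2, at 0.22 to 0.73 with adjusted p of 0.399 to 0.447. Of these, 5 are gene segments of antigen receptors, namely Trav1, Traj25, Traj55 and Traj46 of the T cell receptor alpha chain and Ighv2-3 of the immunoglobulin heavy chain. Traj25 was at 10.16, 9.87 and 10.18 on bitransgenic and 9.79, 9.29 and 9.53 on wild-type basal arrays, without overlap, and its suprabasal groups overlapped within 9.83 to 10.18. On the same arrays 0 of 10 measured immune and Langerhans cell markers were above background in any group, and their summed unlogged signal was 463 to 502 and 457 to 494 in bitransgenic and wild-type basal and 473 to 503 and 518 to 542 in bitransgenic and wild-type suprabasal arrays. Sry, the testis-determining gene of the Y chromosome, was at 8.59 to 9.03 on the bitransgenic and 8.22 to 9.10 on the wild-type arrays, and the 4 Xist-high arrays gave 8.71, 8.59, 8.62 and 8.90, so its probes did not follow the sex pattern that Ddx3y showed. What these probes measured was not tested.

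Ndrg2, a differentiation-associated gene of the N-myc downstream-regulated family, had the largest of these values. It was at 9.52, 9.87 and 9.46 on bitransgenic basal arrays, against 8.77, 9.25 and 8.71 on wild-type ones, without overlap. On suprabasal arrays it was at 10.70, 10.28 and 10.60 in bitransgenic and 10.15, 10.72 and 10.79 in wild-type cells, with overlap. Its interaction was 0.73 ± 0.29 (SE; limma adjusted p = 0.447) and was 0.48 without X667_05, a pair whose layer difference in Ndrg2 was -0.41, against -1.18 in bitransgenic X721_05 and -1.38 to -2.08 in the wild-type pairs. Bnipl, a gene related to Bnip2, had a basal difference of 0.33 ± 0.10 and a suprabasal one of -0.04 ± 0.10. Nab2, a corepressor of EGR transcription factors, had the smallest interaction of the 10, at 0.22 ± 0.08.

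Cell cycle and mitosis genes had a one-sided set of values. All 30 measured members, 21 of them above background, had a negative interaction, and the median was -0.53, against 0.06 over all clusters and -0.08 over genes above background. Of all genes above background, 25.6% were positive. None of the 30 passed the test, and 2 (Aspm and Mki67) had an unadjusted p under 0.05. At that limma threshold 2.32% of all genes above background and 1.34% of the genes not above it were lower. Mki67, a nuclear protein of dividing cells, was at 10.84 to 11.08 on bitransgenic and 11.24 to 11.48 on wild-type basal arrays, without overlap. Its suprabasal signals were 10.15, 10.72 and 10.32 in bitransgenic and 10.50, 10.28 and 9.70 in wild-type cells, with overlap, and the interaction was -0.61 ± 0.28 (SE; limma adjusted p = 0.486). Kif11, a motor that separates spindle poles, had -0.99 ± 0.58, and Top2a, the mitotic topoisomerase, -0.82 ± 0.60.

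The list's median difference was -0.12 in basal and 0.38 in suprabasal cells, and the suprabasal arrays were the more scattered. The list median ran from 8.76 to 9.19 on bitransgenic and from 9.01 to 9.29 on wild-type basal arrays. On suprabasal arrays it was 7.61, 8.85 and 8.28 in bitransgenic and 8.17, 8.08 and 7.17 in wild-type cells, with overlap. Within codes the median drop between basal and suprabasal arrays was 1.18 and 0.50 in the bitransgenic and 0.84, 1.30 and 1.79 in the wild-type pairs, also with overlap, and the smallest was that of X667_05. Without X667_05 all 30 stayed negative with a median of -0.43. Leaving out single arrays gave medians of -0.82, without bitransgenic suprabasal X721_05, to -0.24, without wild-type suprabasal X721_08. The 30 values come from the same arrays and are not independent measurements.

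Nuclear envelope genes showed no interaction that passed. Lmna, whose transcripts encode lamins A and C, was at 10.98, 10.93 and 10.71 on bitransgenic and 10.86, 11.06 and 10.80 on wild-type basal arrays. It was at 10.78, 10.82 and 10.79 on bitransgenic and 10.74, 10.84 and 10.55 on wild-type suprabasal arrays, and both pairs of groups overlapped. Its interaction was -0.12 ± 0.14 (SE; 95% confidence interval -0.43 to 0.19). Of 26 listed genes 24 were measured and 10 were above background, of which 9 were negative, with a median of -0.15, beside -0.08 and 25.6% positive for all genes above background. Zmpste24, the protease that completes prelamin A processing, was not above background and had -0.47 ± 0.18. Tmpo, encoding the lamina-associated polypeptides 2, had -0.42 ± 0.21, and Sun1, an inner membrane protein that ties the lamina to the cytoskeleton, -0.10 ± 0.18. Syne4, an outer membrane nesprin, was not above background and had 0.25 ± 0.09.

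Wnt and Notch genes gave values on both sides of 0, and 0 of their members passed. The Wnt ligands and secretion list had a median of 0.07 over 18 measured genes, which was -0.03 with each array centred, 0.02 under loess and 0.16 without X667_05. The Wnt receptor and transduction list had -0.01 over 27 genes (-0.11 centred, 0.01 under loess, -0.04 without X667_05), and the inhibitor and target list 0.07 over 19 (-0.03 centred, -0.01 under loess and without X667_05). The direction of all 3 medians thus depended on the scaling. Wls, which carries Wnt proteins to the cell surface, was above background and had -0.49 in basal and -0.17 in suprabasal cells, an interaction of -0.32 ± 0.25 (SE). Wnt3 and Wnt4, both Wnt ligands, had differences of -0.58 and -0.56 in basal and of -0.66 and -0.51 in suprabasal cells, which left interactions of 0.08 ± 0.65 and -0.04 ± 0.34. Axin2, a target that feeds back on the pathway, was not above background and had -0.07 ± 0.20, and Dkk4, an inhibitor also not above background, had 0.36 ± 0.09. The Notch list had a median of 0.05 over 17 genes, -0.05 when centred and 0.14 without X667_05. Notch1, the receptor that drives suprabasal commitment, had 0.32 ± 0.24 and its ligand gene Jag1 -0.01 ± 0.31.

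Markers of the layers had interactions on both sides of 0, and none passed. Krt5 had 0.21 ± 0.33 and Krt14 0.09 ± 0.18, Trp63, the transcription factor of stratified epithelia, 0.00 ± 0.39, and Itga6 -0.17 ± 0.57 (SE). The basal keratinocyte list had a median of -0.02 over 17 genes, which was 0.19 without X667_05 and -0.40 without the bitransgenic suprabasal X721_05 array, so its direction rested on these arrays. Itgb1, the integrin beta chain shared by basal receptors, was the member of smallest p, at -0.54 ± 0.20 (limma adjusted p = 0.430). Its basal groups overlapped, whereas its suprabasal signals were 9.07 to 9.27 in bitransgenic and 8.49 to 9.06 in wild-type cells, which barely separated. Without wild-type suprabasal X721_08, the array at 8.49, the Itgb1 interaction was -0.36. Krt1 had -0.22 ± 0.41 and Krt10 -0.04 ± 0.31, and Grhl3, a transcription factor of barrier formation, 0.50 ± 0.26. Flg, encoding filaggrin, had -0.68 ± 0.65, which was -1.29 without X667_05 and -1.03 to -0.21 when single arrays were left out (-0.21 without wild-type basal X682_11). Lor, encoding loricrin, was not above background on all arrays of any group and had 0.26 ± 0.20. The early differentiation list had a median of 0.07 over 15 genes, which was -0.04 when centred and -0.07 without wild-type suprabasal X721_08. The cornified envelope list had -0.08 over 30 genes, which was -0.19 when centred and -0.24 without X667_05, 0.05 without bitransgenic basal X722_07, and 0.04 over its 13 genes above background, so its direction was not settled. The hair follicle list had 0.18 over 16 genes, 0.08 when centred, 0.09 under loess and 0.10 without X667_05.

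**Figure D5:**
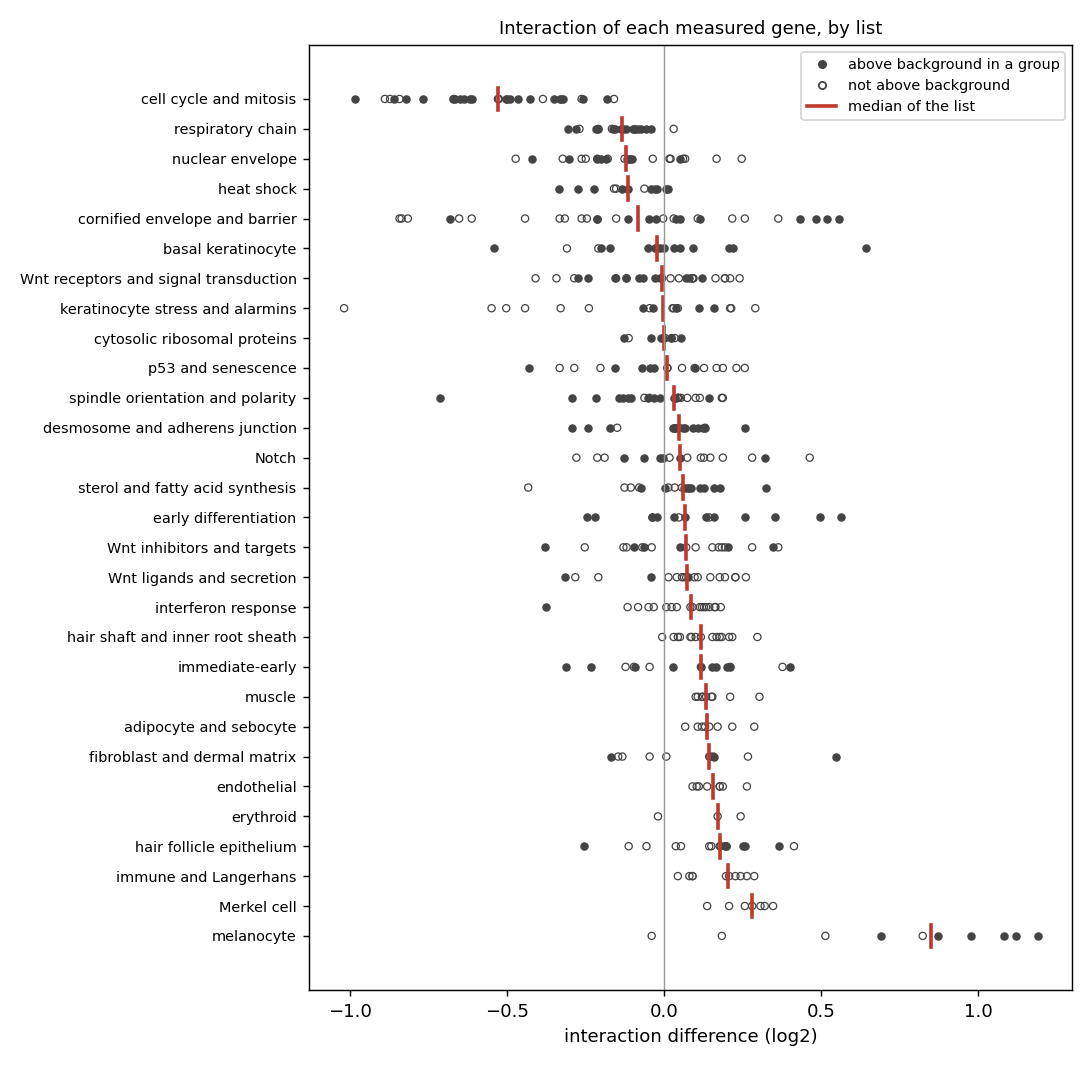
Interaction difference (log2, horizontal axis) of each measured gene of 29 lists of at least 3 genes, sorted by the list median (red bar); filled points were above background in at least 1 group and open points were not. All 30 cell cycle genes lie left of 0 around a median of -0.53, and the melanocyte list, at 0.85, lies right of 0 with 1 member at -0.04.

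Respiratory chain and heat shock genes lay slightly below 0. Of 20 measured respiratory chain genes 19 were negative, with a median of -0.13, which was -0.24 when centred, -0.06 under loess and -0.10 without X667_05. Sdhb, the iron-sulfur subunit of succinate dehydrogenase, had -0.28 ± 0.13 and was the only member with an unadjusted p under 0.05. The heat shock list had 11 of 13 negative and a median of -0.12, and Hsp90aa1, an inducible HSP90 chaperone, had -0.22 ± 0.13. Both medians stood close to the -0.08 of all genes above background, of which 25.6% were positive. The list medians of immediate-early genes and of keratinocyte stress genes had the same sign in both layers, and 0 members of either list passed. The immediate-early median was -0.38 in basal and -0.46 in suprabasal cells, with an interaction median of 0.12 that ran from -0.31 to 0.26 when single arrays were left out, the lowest without wild-type basal X682_11. The stress and alarmin medians were 0.46 and 0.63, with an interaction median of 0.00 that ran from -0.28, without bitransgenic suprabasal X721_05, to 0.13. Fos, an immediate-early transcription factor, had -0.84 ± 0.47 and -0.99 ± 0.47 and an interaction of 0.15 ± 0.67.

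Melanocyte genes had the highest list median, 0.85, with 9 of 10 positive and 0 passing, and this value rested on the X667_05 pair. Of the 10, 6 were above background, in suprabasal cells. The list median was 6.15, 6.71 and 6.32 on bitransgenic and 6.06, 6.46 and 5.74 on wild-type basal arrays, and 11.05, 7.06 and 10.10 on bitransgenic and 8.92, 10.53 and 10.10 on wild-type suprabasal arrays, where X667_05 gave the 7.06. Summed unlogged signal ran from 2240 to 32753 on bitransgenic and from 9582 to 27381 on wild-type suprabasal arrays. Dct had an interaction of 1.19 ± 1.17 (SE; 95% confidence interval -1.40 to 3.78), with basal values not above background that are bounds only. Without both X667_05 arrays all 10 members were negative and the median was -0.56, and Dct was at -0.41. In sorted cells, fewer melanocytes and less RNA per melanocyte cannot be told apart.

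Markers of 5 other cell types had positive values only and were not above background. The endothelial (8 of 8), muscle (9 of 9), adipocyte and sebocyte (8 of 8), Merkel cell (7 of 7) and immune (10 of 10) lists had medians of 0.13 to 0.28, with 0 members above background in any group. The dim genes as a whole had a median of 0.07 and 67.0% positive. After loess these 5 medians were 0.02 to 0.15, and with each array centred they were 0.03 to 0.18. Without X667_05 they were 0.12 to 0.31. There 7 of 8 endothelial and 7 of 8 adipocyte and sebocyte genes were positive, as were all members of the muscle, Merkel cell and immune lists. The 11 measured fibroblast genes had 3 above background and a median of 0.14, which was -0.01 without X667_05, and 4 were negative. Of 3 measured erythroid genes, none above background, 1 was negative, with a median of 0.17, which was 0.09 without X667_05.

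The authors' deposited table compares the genotypes within each layer and over both, and the layers within each genotype, and holds no test of the interaction. In the authors' deposited table, 0 clusters had q under 0.05 in either genotype comparison, with 6313 at p under 0.05 in basal and 4499 in suprabasal cells. For Gpsm2 the authors' deposited table gave signed folds of -1.43 in basal and 1.13 in suprabasal cells, negative where bitransgenic is lower. For Cxcl14 the authors' deposited table gave -1.87 and -1.14, and for Smc3 -1.03 and 1.25.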

How the data were processed

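RNA of sorted keratinocytes was hybridised to 12 Affymetrix MTA-1_0 arrays. Log2 signals per cluster were deposited by the authors; the submitters' processing notes name RMA and Affymetrix Expression Console, and the file headers give NetAffx build 34 and mm10. The 2 deposited tables held the same signals (0 values differed). The authors' comparison table, as deposited, gives per comparison a fold score with a minus sign where the first-named group is lower, beside p-values and q-values, as its file header lists them; the q-value method is not stated in these sources.

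Of 72688 probe sets, 6732 controls (9.26%) were left out and no filter was set on dim clusters. A single symbol came from the platform annotation for 30638 clusters and from the deposited file for 669; 2176 with several symbols and 32473 with none were left unnamed. Groups came from the sample titles. The contrast was fitted with limma 3.58.1 in R 4.3.3 (lmFit and eBayes, 10.6 moderated degrees of freedom) and adjusted by Benjamini-Hochberg over 65956 clusters; the same code was tested on simulated data. Figures were drawn with matplotlib 3.10.9.

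The code in a title was checked as a pairing: deviations from the group mean correlated at 0.14 to 0.53 between the 2 arrays of each of 5 codes, against a median of -0.07 between arrays of different code and group. Arrays of different codes that share the leading number correlated at -0.16 to 0.49, the highest between the suprabasal arrays of X721_08 and X721_05. The labels are silent on pairing, and these values do not settle whether the code or its leading number pairs the samples. Each was run as a block in an alternative, since the series design names unpaired tests.

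Named genes were the 10 of smallest interaction p each way among 3302 genes above background (after leaving out models of ribosomal proteins, olfactory and vomeronasal receptors, small RNAs and predicted genes), the member of smallest p of each list, and a fixed set of markers; further list members named for their roles were chosen after their values were seen. Members and lists were chosen with earlier results of these data known. Alternatives were other scalings, filters, blocks, sex terms, array weights, a plain Student test, each array left out, and, added after seeing the data, both arrays of X667_05 left out. Columns of per-sample values not used numbered 0. A gene that the naming rule picked is not reported here.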

Additional observations from a re-analysis of the deposited data

How the results depend on the processing

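The interaction called 0 clusters under all 28 alternatives, with a smallest adjusted p of 0.0714 (limma, without wild-type basal X667_06) to 0.842. With the code as a replicate block, the paired fit called 0 clusters both as a random block (correlation 0.151, smallest adjusted p = 0.255) and as a fixed block over 5 codes (smallest adjusted p = 0.755), so pairing changed no call. The basal genotype difference called 0 to 87 clusters when single arrays were left out (87 without wild-type basal X667_06, 1 without bitransgenic basal X722_07), and 0 under the other alternatives. The suprabasal difference called 0 throughout. The Student test without moderation gave 0 adjusted calls for the interaction. The methods' Student test on the log2 values of 2 groups alone gave 4514 higher and 1843 lower clusters in basal cells, and 811 higher and 3747 lower in suprabasal cells, at an unadjusted p under 0.05, and 0 after adjustment in both. Of 65 named genes 52 kept their sign under every alternative run, Gpsm2, Cxcl14 and Mki67 among them, and none passed the test under any. Trp63, at 0.00, is counted among the 52 and ranged from -0.40 to 0.63. Of the recomputed list medians 31 moved by more than the list's own spread between arrays of a group and 441 did not. The 441 include changes of sign, such as melanocyte from 0.85 to -0.28 without bitransgenic suprabasal X667_05.

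The sign turned in the genes that follow. Centring gave Krt14 -0.013, and cyclic loess gave Krt10 0.11. Array weights gave Hist2h2aa1 0.016, Krt5 -0.0041, Krt14 -0.0022, Fos -0.043, Xist -2.02 and Ddx3y 1.10. The fixed code block gave Itga6 0.088, and so did leaving out X722_07 and X682_05 without a block (0.088). Blocking on the leading number of each code gave Lmna 0.0078, Fos -0.024, Xist -0.51 and Ddx3y 0.064. Terms for the sex pattern and its interaction with layer gave Dct -1.05, Lmna 0.0033, Itga6 0.85 and Krt79 -0.64. Without both X667_05 arrays Dct was -0.41, Itga6 0.078 and Krt79 -0.25. Leaving out single arrays gave ranges of -0.24 to 0.10 for Hist2h2aa1, -0.15 to 0.42 for Krt5, -0.075 to 0.20 for Krt14, -0.74 to 0.14 for Itga6, -0.51 to 0.09 for Krt1, -0.29 to 0.16 for Krt10, -0.45 to 0.55 for Fos, -0.23 to 0.068 for Axin2, -0.10 to 0.70 for Krt79, -1.89 to 2.56 for Xist and -1.23 to 1.10 for Ddx3y. The cause was not tested.

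With 3 arrays a group, 26064 of 30807 genes were not above background on all arrays of any group. Failing this mark does not show that a gene went undetected. Aspm failed it on every array, yet its basal minus suprabasal difference was 1.15, 1.48 and 1.99 in the wild-type pairs. How many of the genes that failed it were detected was not tested.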
